A study of Mus musculus with 4 samples.

Results

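The 9 genes described here encode the enzymes that take glutamate side chains off tubulin and the enzymes that add or remove its acetyl group. They are the cytosolic carboxypeptidases Agtpbp1, Agbl1, Agbl2, Agbl3, Agbl4 and Agbl5, the α-tubulin acetyltransferase Atat1 and the deacetylases Hdac6 and Sirt2. They were chosen by gene symbol, and all 9 were found among the 22311 genes of the deposited tables. Values are FPKM, a count of sequenced fragments scaled by transcript length and library size, so a level that can be compared between genes of different length.

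RNA came from whole testes of 24-day-old male mice, with 2 samples from Rfx2-/- animals (mutant 1 and 2) and 2 control samples (control 1 and 2). RFX2 is a transcription factor of the RFX family, and the mutant allele lacks in every cell of the body the exons that encode its DNA-binding domain, which were replaced by a neomycin-resistance cassette. The labels give the controls as wild type and the strain as DBA, whereas the study's methods describe heterozygous controls and mice of mixed 129/s6 and C57BL/6 background, so the controls may carry 1 mutant allele. The line comes from 1 embryonic stem cell clone. The study describes the 2 samples of a genotype as separate biological replicates.

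Tubulin of long-lived microtubules carries chains of glutamate on its tail, built by the TTLL glutamylases and trimmed by the cytosolic carboxypeptidases. It also carries an acetyl group on a lysine of α-tubulin that faces the lumen of the microtubule, added by ATAT1 and removed by HDAC6 and SIRT2. Both marks are abundant in the axoneme of the sperm flagellum and in the manchette, the microtubule skirt that shapes the spermatid head. Mice without functional Agtpbp1 (the pcd strain) lose cerebellar Purkinje cells, and the males are sterile.

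The confidence bounds in the deposited tables correspond to 17.2 to 20.3 M fragments per sample. This number is worked back from the bounds and is not the sequencing depth, and the read numbers that the study reports are higher. Below, the size of a library in M fragments means this number. The targeted gene itself, Rfx2, was at 36.7 and 39.8 FPKM in mutant 1 and 2 and at 123 and 89.4 FPKM in control 1 and 2. Its log2 fold change was -1.43 (SE 0.19, adjusted p = 0.00617 from limma), and FPKM over the whole gene also takes in transcripts without the deleted exons. Of 54 markers of testis and neighbouring cell types, 53 were listed and 47 tested, and 0 passed the test with limma (1 had an unadjusted p under 0.05). With an SE as large as 1.2 (Hbb-b1), this does not show equal makeup. The red blood cell markers summed to 14.8 and 109 FPKM in mutant 1 and 2 and to 26.5 and 120 in control 1 and 2. The Leydig cell markers summed to 418, 235, 369 and 135 FPKM in the same order. Mutant 1 stood apart on the summed FPKM of 7 elongating spermatid markers, 944 against 4915 to 7317 in the other 3 samples. That sum took in the defining protamine and transition protein genes, and none of the 7 was at 0 in all samples. For this reason the log2 fold changes below are also given without it, and values of mutant 2 are printed apart. The round spermatid markers summed to 681 and 1100 FPKM in mutant 1 and 2 and to 945 and 769 in control 1 and 2. The part that differences in cell makeup have in the values below was not tested, and in whole testes fewer cells of a type and less RNA per cell cannot be told apart.

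The 9 genes covered a wide span of levels. Agbl5 had the highest mean FPKM in both genotypes, 221 ± 26.2 in control and 207 ± 6.68 in mutant testes (SD, n = 2). Sirt2 came next with 105 ± 14.4 in control testes, followed by Agtpbp1 with 47.8 ± 0.822, Agbl4 with 41.7 ± 5.63 and Agbl2 with 38.2 ± 0.321. Hdac6 had 22.3 ± 6.24, Atat1 13.3 ± 1.12 and Agbl3 12.5 ± 0.792, and Agbl1 was close to absent with 0.175 ± 0.0154. In this order of the control means, the values of Agbl4 and Agbl2 overlapped, as did those of Atat1 and Agbl3, and the other neighbours did not. In mutant testes the order was the same except that Agbl4 stood above Agtpbp1, 3rd instead of 4th, and no neighbours overlapped.

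**Figure D1:**
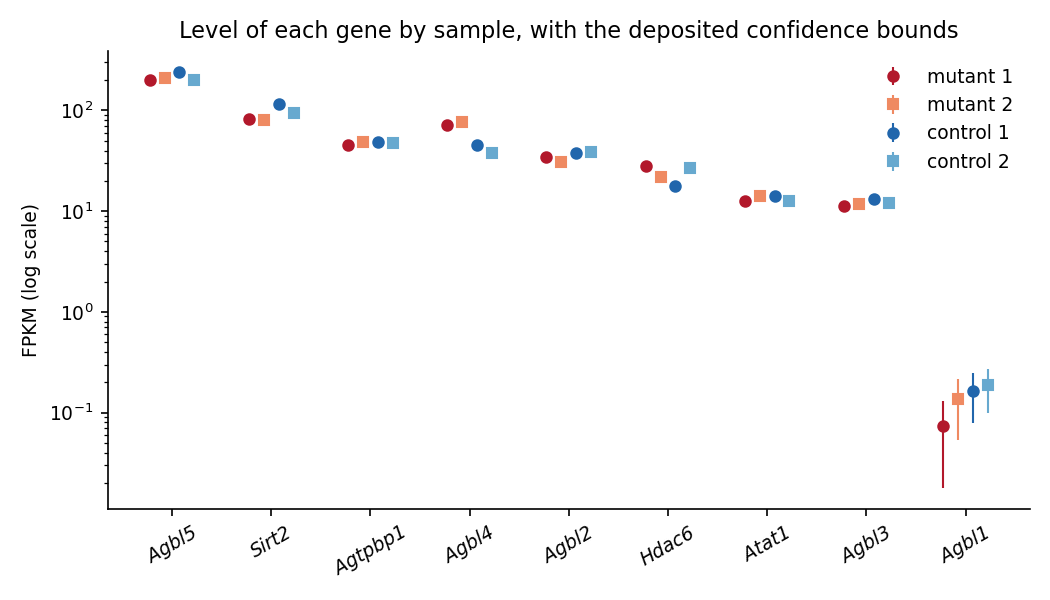
FPKM of each gene (log axis) in the 4 samples, with the lower and upper confidence bounds of the deposited tables as vertical lines. Agbl4 is the gene whose mutant samples (71.3 and 76.2) sit above both control samples (45.7 and 37.7), and Agbl1 lies far below the other 8 genes.

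The genotypes were compared by limma on the log2(FPKM + 1) scale over 12985 genes, those that reached an FPKM of 1 in 2 or more samples. Of the 9 genes, 8 were tested and 1, Agbl1, was under that filter. None of the 8 passed an adjusted p of 0.05 in either direction, where mutant testes were lower for 2.52% and higher for 0.308% of all genes tested. With limma, 1 of the 8 (Agbl4) had an unadjusted p under 0.05, as had 8.69% of all genes tested, and 1 (Agbl4) passed with limma-voom on fragment numbers. The median log2 fold change of the 8 was -0.054, beside 0.032 over all genes tested. In 3 of the 8, Agbl2, Agbl3 and Sirt2, each mutant sample was below each control sample, as in 15.2% of all genes tested. In 1 of the 8, Agbl4, each mutant sample was above each control sample, as in 16.3% of all genes tested.

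Agbl4 encodes CCP6, a carboxypeptidase that shortens long glutamate chains. Its FPKM was 71.3 in mutant 1 and 76.2 in mutant 2, and 45.7 in control 1 and 37.7 in control 2. The mutant samples were the 2 high ones, and the lowest mutant confidence bound (68.6) lay above the highest control bound (48.1). The bounds do not cover the spread between animals. Those of control 1 (43.3 to 48.1) and control 2 (35.7 to 39.8) did not cross either. The mean was 73.7 ± 3.42 in mutant and 41.7 ± 5.63 in control testes (SD, n = 2), a ratio of 1.77. The log2 fold change was 0.81 (SE 0.17, 95% interval 0.42 to 1.2), higher than that of 99.3% of the genes tested. Its adjusted p of 0.050029 was just above the threshold of 0.05. By p it ranked 41st among the genes that were higher in mutant testes, and 40 such genes passed.

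Whether Agbl4 passed depended on the processing. Its direction did not, though only median-ratio scaling, quantile normalization and limma-voom could have turned it. Over 13 alternatives that kept all 4 samples, its log2 fold change ran from 0.79 to 0.97, and it passed in 4 of them. The 4 were robust moderation of the variance (adjusted p = 0.00883), a replicate block (0.00824), the highest entry per symbol (0.0491) and limma-voom on fragment numbers (0.0418). At the other end were median-ratio scaling, with an adjusted p of 0.249, and no filter on low values, with 0.13. Leaving out mutant 1, the library with few elongating spermatid transcripts, gave 0.86. Without mutant 2 it was 0.77, without control 1 it was 0.95 and without control 2 it was 0.68. Each of these fits leaves 1 sample in a group, so only the size of the change is given.

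**Figure D2:**
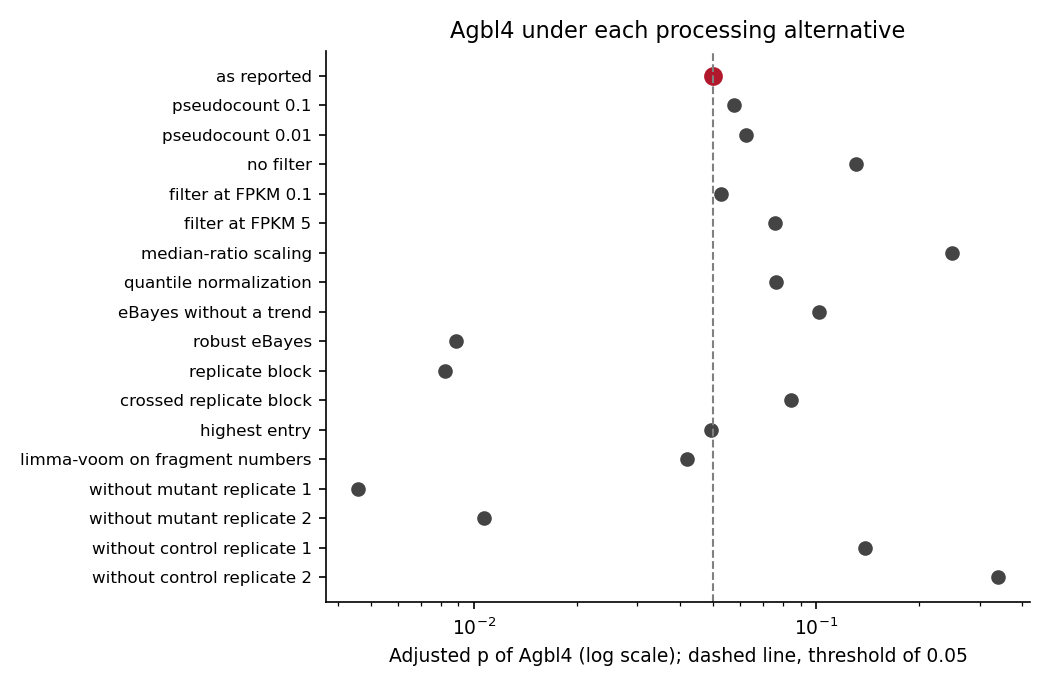
Adjusted p of Agbl4 (horizontal log axis) in the comparison as reported and under each processing alternative, with a dashed line at the threshold of 0.05. The value as reported sits on the line at 0.050029. The alternatives that kept all 4 samples fall on both sides of it, from 0.00824 with a replicate block to 0.249 with median-ratio scaling. Points with a sample left out come from fits with 1 sample in a group and cannot be compared with the rest.

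Agbl4 is a very long gene, spanning 1266.664 kb at chr4:110070266-111336929 on the plus strand (mm9), with 7 coding and 3 other annotated transcripts. A second protein-coding gene, Bend5 at chr4:111087611-111132903, lies inside that span on the same strand and shares 0 exon bases with it. Because of this position its values are given too. FPKM of Bend5 was 5.22 and 4.90 in mutant 1 and 2 and 2.97 and 2.75 in control 1 and 2, which again put both mutant samples above both control samples, and the ratio of the means was 1.77, as for Agbl4. Its log2 fold change was 0.65 (SE 0.21, adjusted p = 0.262 from limma), which did not pass, and without mutant 1 it was 0.61. Before scaling by library size, the fragment numbers of Bend5 were 192 and 128 in mutant 1 and 2 and 119 and 129 in control 1 and 2. The libraries held 20.0 and 17.2 M fragments in mutant 1 and 2 and 19.6 and 20.3 M in control 1 and 2. Scaled by these sizes, the fragment numbers gave a log2 fold change of 0.45 for Bend5 (SE 0.31, adjusted p = 0.997 from limma-voom). Whether reads from 1 of these genes were assigned to the other was not tested.

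The 3 tested genes with the pattern most like Agbl4 were Pld4, Tctn1 and Fam160a2, by Euclidean distance over the 4 samples of log2(FPKM + 1) less the control mean. The distances were 0.137 for Pld4, 0.156 for Tctn1 and 0.157 for Fam160a2. Tctn1, which encodes a protein of the ciliary transition zone, had an FPKM of 23.8 and 25.2 in mutant 1 and 2 and 15.5 and 13.7 in control 1 and 2. Fam160a2 had 33.3 and 33.0 against 21.2 and 18.3, and Pld4 had 1.83 and 2.12 against 0.704 and 0.591, in the same order of samples. The control samples were the low ones in each, which follows from choosing the genes by their likeness to Agbl4. None of the 3 passed the test (adjusted p = 0.0956 for Tctn1, 0.0815 for Fam160a2 and 0.0722 for Pld4 from limma). Without mutant 1 the log2 fold changes were 0.75 for Tctn1, 0.72 for Fam160a2 and 0.92 for Pld4.

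The other deglutamylases showed no difference that passed. Agbl5 encodes CCP5, which removes the glutamate at the branch point of a side chain, and its FPKM was 202 in mutant 1, 212 in mutant 2, 239 in control 1 and 202 in control 2. The genotypes overlapped, with control 1 the highest and control 2 the lowest sample. The log2 fold change was -0.086 (SE 0.18, 95% interval -0.51 to 0.34, adjusted p = 0.9999). Agbl5, at chr5:31191067-31209338 on the plus strand, shares 677 exon bases with Ost4 on the opposite strand. FPKM of Ost4, which encodes a small subunit of the oligosaccharyltransferase, was 72.5 and 74.6 in mutant 1 and 2 and 60.1 and 54.9 in control 1 and 2. Its log2 fold change was 0.35 (adjusted p = 0.611 from limma), and 0.37 without mutant 1. The sources used here do not say whether strand was used in assigning fragments, so reads from the shared bases may have gone to either gene.

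Agtpbp1 encodes CCP1, the founding member of the family. Its FPKM was 45.3 in mutant 1, 48.9 in mutant 2, 48.4 in control 1 and 47.2 in control 2. The 2 mutant samples bracketed both control samples. The log2 fold change of -0.022 (SE 0.16, adjusted p = 0.9999) had a 95% interval of -0.38 to 0.34, so changes within that range in either direction cannot be told from none. Its sign turned under 2 of the 13 alternatives. Without mutant 1 the log2 fold changes were 0.031 for Agtpbp1, -0.29 for Agbl2, -0.093 for Agbl3 and -0.053 for Agbl5.

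Agbl2 and Agbl3 encode CCP2 and CCP3, a pair that is known from cilia. FPKM of Agbl2 was 34.3 in mutant 1, 31.0 in mutant 2, 37.9 in control 1 and 38.4 in control 2. Both mutant samples were the low ones, and the ratio of the means was 0.856. The log2 fold change was -0.22 (SE 0.16, 95% interval -0.59 to 0.15, adjusted p = 0.9999). It passed in none of the 13 alternatives. It stayed negative in all of them, though only median-ratio scaling, quantile normalization and limma-voom could have turned its sign. With each sample left out it ran from -0.29 to -0.15.

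FPKM of Agbl3 was 11.1 in mutant 1, 11.7 in mutant 2, 13.1 in control 1 and 11.97 in control 2. Here the genotypes were separate by a narrow gap, and the confidence bounds of mutant 2 (10.96 to 12.4) and control 2 (11.3 to 12.6) crossed. The ratio of the means was 0.910 and the log2 fold change was -0.12 (SE 0.18, 95% interval -0.55 to 0.30, adjusted p = 0.9999).

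Agbl1 encodes CCP4 and was near the limit of detection. FPKM was 0.0734 in mutant 1, 0.135 in mutant 2, 0.164 in control 1 and 0.186 in control 2, and the bounds correspond to 7, 11, 15 and 18 fragments in that order. Both mutant samples were the low ones, with a ratio of means of 0.594. The bounds of mutant 1 (0.0179 to 0.129) crossed those of control 1 (0.0795 to 0.249) and control 2 (0.0984 to 0.274), so a difference was not detectable at this depth. In the comparison without a filter on low values, its log2 fold change on the log2(FPKM + 1) scale was -0.091 (SE 0.046, adjusted p = 0.791 from limma), a scale that understates changes of such low values.

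**Figure D3:**
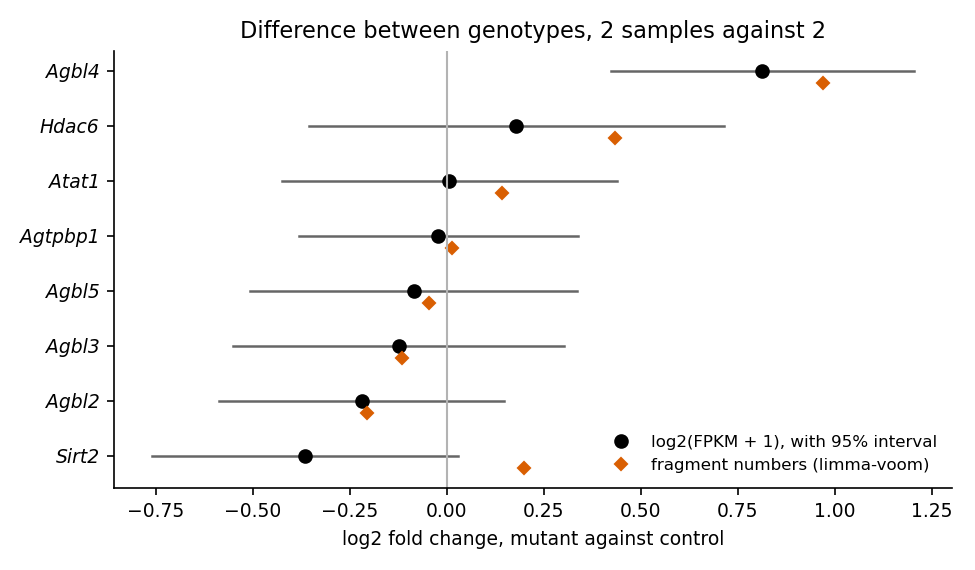
Log2 fold change of mutant against control testes for the 8 genes tested: black points with horizontal 95% intervals are from limma on log2(FPKM + 1), and orange diamonds are from limma-voom on the fragment numbers of the confidence bounds. Agbl4 is the gene whose interval (0.42 to 1.2) lies clear of 0, and Sirt2 is at -0.36 on one measure and at 0.20 on the other.

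The FPKM of the 6 deglutamylases was also added up in each sample. The sum was 365 in mutant 1, 380 in mutant 2, 384 in control 1 and 338 in control 2, so the genotypes overlapped. Agbl4 took 19.6% and 20.1% of that sum in mutant 1 and 2, against 11.9% and 11.2% in control 1 and 2. The share of Agbl5 was 55.5% in mutant 1, 55.8% in mutant 2, 62.2% in control 1 and 59.9% in control 2. Shares of 1 sum are tied to each other, and with Agbl4 taken out of the sum Agbl5 held 69.0% and 69.8% in mutant 1 and 2 and 70.6% and 67.4% in control 1 and 2, which overlap. The ratio of Agbl4 to Agbl5 was 0.352 and 0.360 in mutant 1 and 2 and 0.191 and 0.187 in control 1 and 2. Such a ratio within a library does not change with the scaling of that library. Agtpbp1 took 12.4% and 12.9% in mutant 1 and 2 and 12.6% and 14.0% in control 1 and 2. For Agbl2 the shares were 9.42%, 8.18%, 9.87% and 11.4%, in the same order. Agbl3 took 3.05% to 3.55% of the sum in the 4 samples, and Agbl1 at most 0.0552%. These shares are descriptions with no test.

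**Figure D4:**
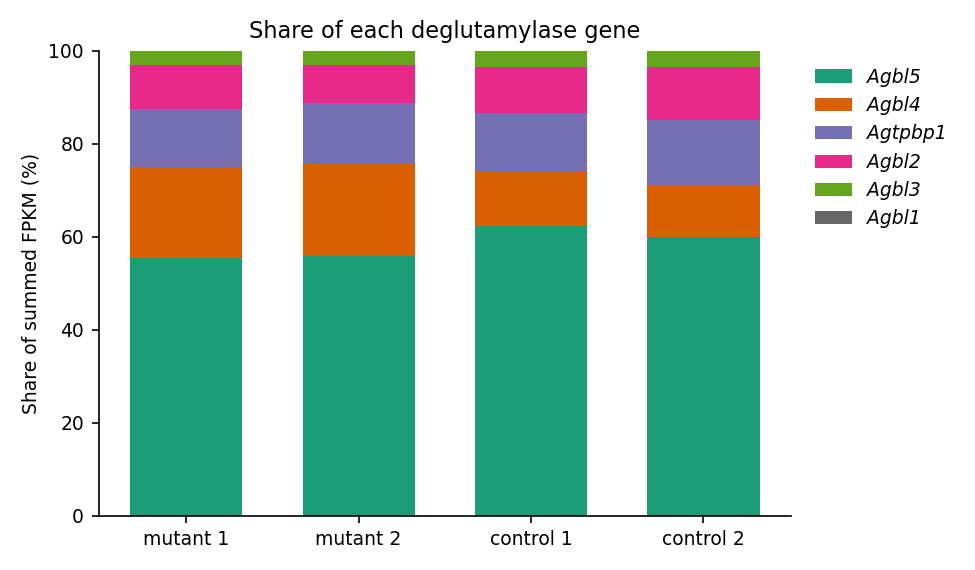
Share of each of the 6 deglutamylase genes in their summed FPKM (vertical axis, percent) in each sample. The orange block of Agbl4 takes 19.6% and 20.1% in mutant 1 and 2 but 11.9% and 11.2% in control 1 and 2, while Agbl1 is too low to be visible.

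Atat1, the acetyltransferase that is needed for most acetylated α-tubulin in mice, had an FPKM of 12.5 in mutant 1, 14.1 in mutant 2, 14.1 in control 1 and 12.5 in control 2. The 2 genotypes covered nearly the same range. Its log2 fold change was 0.0061 (SE 0.19, 95% interval -0.43 to 0.44, adjusted p = 0.9999), and the sign turned with median-ratio scaling. Atat1 lies at chr17:36034540-36047020 on the minus strand, 20.87 Mb from Rfx2 on the same chromosome, and shares 644 exon bases with Gm16279, a noncoding RNA gene on the opposite strand that is not among the symbols of the tables.

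Hdac6 encodes a cytoplasmic deacetylase that acts on tubulin and also on cortactin and HSP90. Its FPKM was 28.1 in mutant 1, 21.9 in mutant 2, 17.9 in control 1 and 26.7 in control 2, so the lowest sample was a control and the highest a mutant, with the other two between them in the opposite order. On the log2(FPKM + 1) scale it had the widest spread within either genotype of the 8 genes tested, and its SE of 0.23 on that scale was the largest. The log2 fold change was 0.18 (95% interval -0.36 to 0.71, adjusted p = 0.9999), and without control 1 it was -0.098. Without mutant 1 it was 0.0062, and that of Atat1 was 0.087. With each sample left out in turn it ran from -0.098 to 0.46.

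Sirt2 encodes an NAD-dependent deacetylase of tubulin and other proteins. Its FPKM was 82.3 in mutant 1, 80.0 in mutant 2, 115 in control 1 and 95.1 in control 2. Both mutant samples were the low ones, and their bounds (77.0 to 85.3 over the pair) lay below those of control 2 (91.3 to 98.9). These bounds leave out the spread between animals. The means were 81.2 ± 1.67 in mutant and 105 ± 14.4 in control testes (SD, n = 2), a ratio of 0.771. The log2 fold change of -0.36 (SE 0.17, 95% interval -0.76 to 0.03) had an unadjusted p of 0.0655 and an adjusted p of 0.668 from limma, and it did not pass. Without mutant 1 it was -0.39.

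The direction for Sirt2 depended on which quantity was compared. The fragment number is the number of fragments whose counting error alone would give the deposited confidence bounds. For Sirt2 it was 3058 in mutant 1, 2794 in mutant 2, 2979 in control 1 and 2538 in control 2. These numbers are not scaled by the size of the library, which was 20.0, 17.2, 19.6 and 20.3 M fragments in that order. Their overlap is therefore not a comparison of levels. On the fragment numbers, scaled by library size, limma-voom gave a log2 fold change of 0.20 (SE 0.18, adjusted p = 0.997), the opposite sign to that on FPKM. The number of fragments behind 1 FPKM, divided by the size of the library in M fragments, was 1.86 and 2.04 in mutant 1 and 2 and 1.31 in each control sample. This ratio depends on the effective length that the transcript estimates of a gene give and on how surely fragments were assigned among its transcripts. For Sirt2 it was 0.57 higher in mutant testes on the log2 scale, and 71 of 12960 genes (0.548%) differed by at least that much between genotypes. Sirt2, at chr7:29551754-29573684 on the plus strand, has 2 coding and 7 other annotated transcripts and shares 42 exon bases with Nfkbib on the opposite strand. A different use of its transcripts was not tested, since values per transcript were not analysed here.

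For Hdac6 the same ratio was 3.42 in mutant 1, 6.02 in mutant 2, 3.70 in control 1 and 3.89 in control 2. Mutant 2 thus stood apart from the other 3 samples, and 1.38% of genes had a range at least as wide (0.81 on the log2 scale, against a median of 0.041). Agbl2 and Agbl3, with a range of 0.039 and 0.040 on that scale, had nearly equal ratios in all samples. For Agbl4 the ratio was 2.003 and 1.75 in mutant 1 and 2 and 1.65 and 1.75 in control 1 and 2, and its fragment numbers of 2856 and 2288 against 1479 and 1347 kept the order seen in FPKM.

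**Figure D5:**
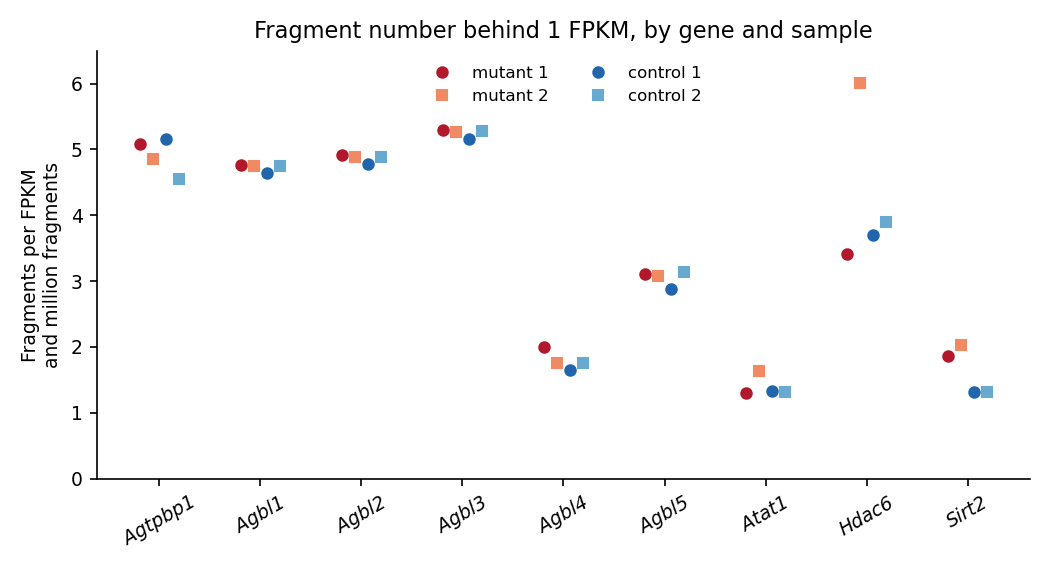
Number of fragments behind 1 FPKM, divided by the size of the library in M fragments (vertical axis), for each gene and sample, worked out from the deposited confidence bounds. The mutant samples of Sirt2 (1.86 and 2.04) lie above its control samples (1.31), and mutant 2 of Hdac6 (6.02) lies apart from the other samples.

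The ratio of the acetyltransferase to its counterparts was also compared within each library. Atat1 FPKM per Hdac6 FPKM was 0.445 in mutant 1, 0.645 in mutant 2, 0.788 in control 1 and 0.468 in control 2, with overlap of the genotypes. Atat1 per Sirt2 was 0.152 and 0.177 in mutant 1 and 2 and 0.122 and 0.131 in control 1 and 2, so both mutant samples were above both control samples. That order rests on the FPKM of Sirt2, with the dependence described above.

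RFX factors bind the X-box, a pair of inverted arms of 6 bases with a gap of 0 to 3 bases, and the promoters of the 9 genes were searched for it on both strands. RefSeq windows (GRCm38.p6) of 250 bases before to 50 bases after each start were used, and each was placed in mm9 by its single exact match. The study itself scanned wider promoter regions with a weighted motif. A gene without a match here may therefore have a site by that search. Without a mismatch, 1 of the 9 genes (Agbl3) had a match, beside 474 of 27025 genes (1.75%) and 502 of 32851 windows (1.53%) in the whole table. The window of Agbl3 is shown with the match in capitals, and that of Agbl4 is shown because it was the gene with the largest difference and had no match even with 1 mismatch.
Agbl3, chr6:34730182-34730481, plus strand: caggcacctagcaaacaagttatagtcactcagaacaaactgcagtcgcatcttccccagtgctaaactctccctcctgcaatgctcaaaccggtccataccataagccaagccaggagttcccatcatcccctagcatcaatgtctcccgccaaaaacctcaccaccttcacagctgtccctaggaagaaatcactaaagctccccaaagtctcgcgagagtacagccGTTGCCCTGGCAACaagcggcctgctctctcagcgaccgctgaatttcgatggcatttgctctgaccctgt
Agbl4, chr4:110070053-110070352, plus strand: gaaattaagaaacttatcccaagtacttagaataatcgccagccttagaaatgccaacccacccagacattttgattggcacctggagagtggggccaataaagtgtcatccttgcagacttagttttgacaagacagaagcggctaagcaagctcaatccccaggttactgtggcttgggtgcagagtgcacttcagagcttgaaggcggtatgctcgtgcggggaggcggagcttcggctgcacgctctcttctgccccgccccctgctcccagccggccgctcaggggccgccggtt
The Agbl3 match runs from position -21 to -8 relative to the start, has a gap of 2 bases and is read on both strands. With 1 mismatch allowed, 4 of the 9 genes had a match, beside 12.7% of genes and 11.3% of windows.
The 3 further matches, read 5′ to 3′ on the strand of the match, were in Agbl2, Atat1 and Hdac6.
Agbl2, positions -6 to 7, gap of 1 base: GGAGCCTAGCAAC
Atat1, positions -155 to -142, gap of 2 bases: GTTGCCCTGGCATC
Hdac6, positions -127 to -113, gap of 3 bases: GTGGCCCCGGGCACC
Agbl2 also has a second start, whose window held a further match with 1 mismatch at -190 to -178. None of these 4 genes passed the comparison of genotypes, and a match is a stretch of letters, not a measured binding site.

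A further 42 genes were compared as the surroundings of these 9: polyglutamylases, glycylases, tyrosination and detyrosination enzymes, tubulins and microtubule-severing enzymes. All 42 were listed and 36 were tested with limma. Of these, 5 were lower (13.9%) and 1 was higher (2.78%) in mutant testes, where the shares over all genes tested were 2.52% and 0.308%. The median log2 fold change of the 36 was -0.16, beside 0.032 over all genes tested. The study itself singled out some of them from these samples, so their count is not independent evidence of a direction. Among 13 polyglutamylases and complex subunits, all tested, 3 were lower and 1 was higher. Ttll6, which elongates glutamate chains, had an FPKM of 3.58 and 3.75 in mutant 1 and 2 and 36.4 and 33.1 in control 1 and 2 (log2 fold change -2.93, adjusted p = 0.000111). Ttll1, the catalytic subunit of the tubulin polyglutamylase complex, had 5.55 and 4.09 against 16.3 and 13.0 (-1.43, adjusted p = 0.0146), and Ttll2 had 0.489 and 0.744 against 3.20 and 2.29 (-1.21, adjusted p = 0.0269). For these 3 writers of glutamate chains, each mutant sample was far below each control sample.

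The 1 gene that was higher was Nicn1, which encodes a noncatalytic subunit of that same complex. Its FPKM was 39.3 in mutant 1, 34.6 in mutant 2, 20.8 in control 1 and 19.9 in control 2 (log2 fold change 0.83, SE 0.17, adjusted p = 0.0424 from limma). In size this is close to Agbl4, at 0.81. Of the 3 glycylases, which add glycine to the same tubulin tails, 1 was lower, the initiating enzyme Ttll3 with 1.09 and 1.25 in mutant 1 and 2 against 20.1 and 18.2 in control 1 and 2 (-3.21, adjusted p = 0.000131).

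Of 7 microtubule-severing genes 6 were tested, and 1 was lower, Katnal1, with an FPKM of 4.94 and 4.38 in mutant 1 and 2 against 18.4 and 16.7 in control 1 and 2 (-1.71, adjusted p = 0.00260 from limma). Severing enzymes act on glutamylated microtubules, and Katnal1 is known from Sertoli cells. None of the 2 tested of 4 tyrosination and detyrosination genes, and none of the 12 tested of 15 α- and β-tubulin genes, passed. The tubulins had a median log2 fold change of 0.040.

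Without mutant 1 the log2 fold changes of these 6 genes were -2.91 for Ttll6, -3.16 for Ttll3 and -1.61 for Ttll1. They were -1.09 for Ttll2, -1.78 for Katnal1 and 0.74 for Nicn1. Without control 1 they were -2.87 for Ttll6, -3.14 for Ttll3 and -1.28 for Ttll1. For Ttll2, Katnal1 and Nicn1 they were then -1.03, -1.65 and 0.86. Such a fit leaves 1 sample in a group, so only the size of the change is given for these genes. Their mutant and control samples did not overlap, so leaving out 1 sample could not have turned the direction.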

How the data were processed

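The authors aligned RNA-seq reads (Illumina HiSeq) to mm9 with TopHat2 2.0.6 (per the labels) and deposited Cufflinks FPKM per gene with confidence bounds. Per the study's methods, values were normalized for gene length and sequencing depth. Cuffdiff was not repeated here. Entries sharing a symbol were summed. The 12985 genes that reached FPKM 1 in 2 or more samples were compared as log2(FPKM + 1), pseudocount 1, with limma 3.58.1 in R 4.3.3 (lmFit, eBayes with trend), two-sided, Benjamini-Hochberg over all genes tested, threshold 0.05. The fit has 2 residual degrees of freedom, and an exact permutation test of 2 against 2 samples cannot go below 0.333. The fit was tested on simulated data. Fragment numbers were the squared ratio of FPKM to its standard deviation, taken from the upper bound. They and the bounds cover counting error and, in genes with several transcripts, doubt in assigning fragments, but not the spread between animals.

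The 9 genes, the lists and the tests were chosen with earlier results of these data known. Named genes are the 9, Rfx2, list genes with adjusted p under 0.05, and the 3 genes nearest to the one with the largest difference; Bend5, Ost4, Nfkbib and Gm16279 were added for their overlap. The replicate numbers of the labels are only numbers, so no pairing was used in the main fit. Deviations of same-numbered samples correlated at -0.15 over the genes tested. The summed red blood cell and Leydig cell markers each split the samples by number, while the sums of the other marker lists did not. Whether same-numbered samples shared a preparation was not tested. Alternatives are listed in the closing section. Tpgs1, Tpgs2 and Svbp were listed as Gm16517, 5730494M16Rik and Ccdc23. Positions, shared exon bases and transcript counts are from GENCODE on NCBIM37 (mm9). The study's methods name a UCSC gene annotation of mm9 instead, so the transcripts behind the FPKM may differ from these. Python 3.11.15, numpy 2.4.6 and pandas 2.3.3 were used.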

Additional observations from a re-analysis of the deposited data

How the results depend on the processing

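The comparison was repeated with a pseudocount of 0.1 or 0.01, without a filter or with one at FPKM 0.1 or 5, under quantile normalization or median-ratio scaling, with robust eBayes or eBayes lacking a trend, and with a replicate block, the highest entry per symbol, limma-voom, each sample left out and, chosen after seeing the data, a crossed replicate block. Of all genes tested, 327 were lower and 40 higher as reported, against 199 and 17 with no filter, 202 and 17 with a filter at FPKM 5, and 206 and 16 with median-ratio scaling. Robust eBayes gave 67 higher. The replicate block, which takes same-numbered samples as pairs, gave 525 lower and 70 higher, and the crossed block 266 and 28. Whether the numbers mark true pairs is not known. With 1 sample left out, the counts ran from 167 to 948 lower and from 13 to 162 higher. Such a fit assumes that the lone sample varies like the other group. Of the 9 genes, 0 passed as reported and 1 (Agbl4) with robust eBayes, the replicate block, the highest entry and limma-voom, and 0 to 1 with a sample left out. Of the 42 surrounding genes, 6 passed as reported, 3 with no filter, and 2 to 12 with a sample left out. For Rfx2 the adjusted p missed the threshold with no filter (log2 fold change -1.43, adjusted p = 0.0607), median-ratio scaling (-1.45, 0.0829), limma-voom (-1.66, 0.0677) and without control 1 (-1.20, 0.0628), and the log2 fold change ran from -1.66 to -1.20 with a sample left out.

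The sign turned for Agtpbp1 with quantile normalization (0.036), limma-voom (0.014) and a sample left out (-0.076 to 0.031), for Agbl5 (-0.21 to 0.035) and Hdac6 (-0.098 to 0.46) with a sample left out, for Atat1 with median-ratio scaling (-0.013) and a sample left out (-0.075 to 0.087), and for Sirt2 with limma-voom (0.20). The cause was not tested. Agbl2, Agbl3 and Agbl4 kept their sign under all 13 alternatives and with each sample left out. Most of this was fixed in advance. Their mutant and control samples did not overlap, so neither a pseudocount nor leaving out 1 sample could turn the sign. The filters, the moderation, the blocks and the highest entry left their estimates unchanged. Only median-ratio scaling, quantile normalization and limma-voom could have turned it. At the confidence bounds the deglutamylase sum of mutant 2 was 369 and 390. Allowing 1 mismatch raised the genes with an X-box from 1 to 4. With 2 samples a group, the 95% intervals of the 8 genes tested, except Agbl4, hold changes in both directions, and depth limits Agbl1.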
